A study of Mus musculus with 4 samples.

Results

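The genes described here encode the ADAM proteases, the ADAMTS proteases and the ADAMTS-like proteins, measured in endothelial cells of the mouse spleen. They were taken by name: every gene whose array symbol is Adam, Adamts or Adamtsl followed by a number, 57 of the 30195 genes on the array, read by 91 of its 39429 non-control probes. Of these, 33 are ADAM, 19 ADAMTS and 5 ADAMTSL genes. Signal was high enough to test 26 of the 57, made up of 16 ADAM, 9 ADAMTS and 1 ADAMTSL gene. All mice were Ackr4GFP/wt, that is, they carried a green fluorescent protein (GFP) reporter at 1 copy of the locus of the atypical chemokine receptor ACKR4 and a wild-type copy at the other, and this holds for the control cells too. After digestion of the spleens at 37 °C, in steps of 45 and 20 min, CD45-bearing cells were depleted, and DAPI-negative, CD45-negative, CD31-positive cells were sorted into ACKR4-positive and ACKR4-negative cells by GFP. Each of 2 separate sorts pooled 2 to 3 mice and gave 1 array of each kind, so each group has 2 one-colour Agilent arrays, and GFP reports the locus rather than ACKR4 protein. Amplification started from 6 to 20 ng of RNA.

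ADAM proteins sit in the cell membrane and join a metalloprotease domain to a disintegrin domain that can bind integrins. Active members cut the outer parts of other membrane proteins off the cell, among them Notch receptors and their ligands, cytokine receptors and cadherins, while some members lack the residues needed for cleavage and act in adhesion. ADAMTS proteins are secreted, carry thrombospondin repeats that hold them in the matrix, and cut proteoglycans, procollagens or von Willebrand factor, and the ADAMTS-like proteins share the repeats but have no protease domain.

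In ACKR4-positive cells the matrix-acting genes Adamts5, Adamts16, Adamts2 and Adamtsl4 were higher and the adhesion-type gene Adam23 was lower. Of the 26 tested genes these 5 were called, at an adjusted p under 0.05 in limma, against 5.62% of all 17362 tested genes. Adamts16 and Adam23 passed the background filter only through the group in which they were higher. With normexp background correction neither was called (adjusted p = 0.0752 and 0.258 in limma). The 4 called higher compare with 1.91% of all genes called higher, and the 1 called lower with 3.71% called lower. Split by family, 4 of 10 ADAMTS and ADAMTSL genes were called higher and 0 lower, while of 16 ADAM genes 0 were higher and 1 lower. This split depended on the fit. With the replicate as a block, which pairs the arrays by sort, 4 of the 10 were higher and 3 lower. Of the 16 ADAM genes 2 were then higher and 3 lower, beside 6.75% and 8.55% of all tested genes. The median log2 fold change was 0.54 in the first family and 0.24 in the second, beside 0.04 over all tested genes. The first median takes Adamts8 at its brighter probe (0.38), while its dimmer probe was lower in ACKR4-positive cells. The order of the families turned without the filter on dim probes (-0.046 and 0.16), with the mean of the probes of a gene (0.092 and 0.18) and without ACKR4-negative replicate 2 (0.43 and 0.57). Signs were mixed in both families, and the median size without sign was 2.08 for ADAMTS and ADAMTSL genes, 0.49 for ADAM genes and 0.36 over all genes. No test of one family against the other was made. Lower signal of a gene can come from fewer cells that express it or from less RNA per cell, and the 2 cannot be told apart in sorted pools.

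Sequence just before the start of the gene is shown for Adam23, Adamts2 and Adamtsl4. These were the 3 of the 5 called genes for which such sequence was found. Adam23 was lower and the others were higher. The windows hold the 250 bases before the RefSeq start, from the RefSeq table on build GRCm38.p6, at chr1:63445641-63445890 on the plus strand for Adam23, chr11:50601835-50602084 on the plus strand for Adamts2 and chr3:95687918-95688167 on the minus strand for Adamtsl4. Capitals mark each CG dinucleotide, and each window reads 5′ to 3′ along the strand of its gene.
Adam23: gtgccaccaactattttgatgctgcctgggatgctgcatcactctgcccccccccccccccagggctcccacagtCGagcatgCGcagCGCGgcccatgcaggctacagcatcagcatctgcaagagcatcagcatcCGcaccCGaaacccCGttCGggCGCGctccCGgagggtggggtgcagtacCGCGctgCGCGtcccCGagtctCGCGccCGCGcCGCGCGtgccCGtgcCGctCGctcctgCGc
Adamts2: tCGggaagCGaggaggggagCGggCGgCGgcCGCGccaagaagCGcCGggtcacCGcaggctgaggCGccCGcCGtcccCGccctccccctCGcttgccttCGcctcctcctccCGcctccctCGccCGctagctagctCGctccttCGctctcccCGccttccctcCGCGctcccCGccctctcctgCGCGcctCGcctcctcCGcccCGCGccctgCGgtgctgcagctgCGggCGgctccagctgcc
Adamtsl4: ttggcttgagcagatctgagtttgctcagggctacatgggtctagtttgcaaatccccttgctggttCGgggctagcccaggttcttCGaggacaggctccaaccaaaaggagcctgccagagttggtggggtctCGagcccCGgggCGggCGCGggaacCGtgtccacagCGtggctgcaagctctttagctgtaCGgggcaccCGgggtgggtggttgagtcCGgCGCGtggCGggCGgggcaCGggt
All 3 windows were rich in CG. Adam23 had 27 CG dinucleotides and a GC content of 70.4%, Adamts2 34 and 78.0%, and Adamtsl4 17 and 64.4%, against medians of 6 and 52.4% over 32851 windows of the same length. In CG content the gene that was lower lay between the 2 that were higher. Windows were found for 31 of the 57 genes. Those of the broadly expressed sheddase genes Adam10, Adam17 and Adam15 held 29, 23 and 18 CG dinucleotides. Of the same class, Adam19 held 4 to 7 in 3 windows and Adam8 held 6. The windows of 10 ADAM genes of the male reproductive tract held 0 to 4. On both strands, the GC box GGGCGG was found at 5 places in Adamts2, 2 in Adamtsl4 and 0 in Adam23, and 32.7% of all windows hold it. The core motifs CCGGAA of ETS factors, AACAAT of SOX factors, TGGGAA of the Notch effector RBPJ and AGGTCA of nuclear receptors, and the TATA box TATAAA, were in none of these 3 windows. They occur in 12%, 9.42%, 21.6%, 14.0% and 12.4% of all windows.

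Levels are given as log2 signal minus the 75th percentile of the array, so that 0 is that percentile, and are compared only within a gene. Between 54.9% and 58.3% of probes were well above background on each array. Ackr4 itself stood at -7.53 and -7.50 in the ACKR4-negative group and -0.21 and 2.55 in the ACKR4-positive group, which checks the labels. The endothelial genes Cdh5, Pecam1 and Tie1 had signal well above background on all 4 arrays, and 3 of 12 endothelial markers were called lower. Spike-in RNA gave a median signal of 837 on replicate 1 of the ACKR4-negative group and of 2749 to 3489 on the other arrays. Markers of some other cells moved with the groups. Of 12 megakaryocyte and platelet markers 10 were called lower, and their summed level, as multiples of the 75th percentile, was 103 to 236 in ACKR4-negative and 1.28 to 2.78 in ACKR4-positive cells, where Itga2b, Gp5, Gp6 and Tubb1 were not well above background. Of 8 mural markers 4 were called lower, with sums of 56.2 to 84.3 and 2.28 to 2.43. Of 7 fibroblastic reticular markers 0 were called by limma, 3 were lower at an unadjusted p under 0.05, which 16.3% of all tested genes had in either direction, and their sums were 2.31 to 2.86 and 1.77 to 2.50. Of 5 tested erythroid markers 2 were called lower, Gata1 and Epor, at log2 fold changes of -7.28 and -4.17, and for 3 the groups overlapped. Gata1 was not well above background on the ACKR4-positive arrays, a fall of at least 81.2-fold. Erythroid sums were 375 on replicate 1 of the ACKR4-negative group and 16.4 to 59.4 on the other arrays. The sums, unlike these 2 markers, did not follow the groups. Of 8 macrophage markers 0 were called, of 7 lymphocyte markers 1 was lower, and of 4 granulocyte and monocyte markers 0 were called. Of all tested genes 5.62% were called.

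**Figure D1:**
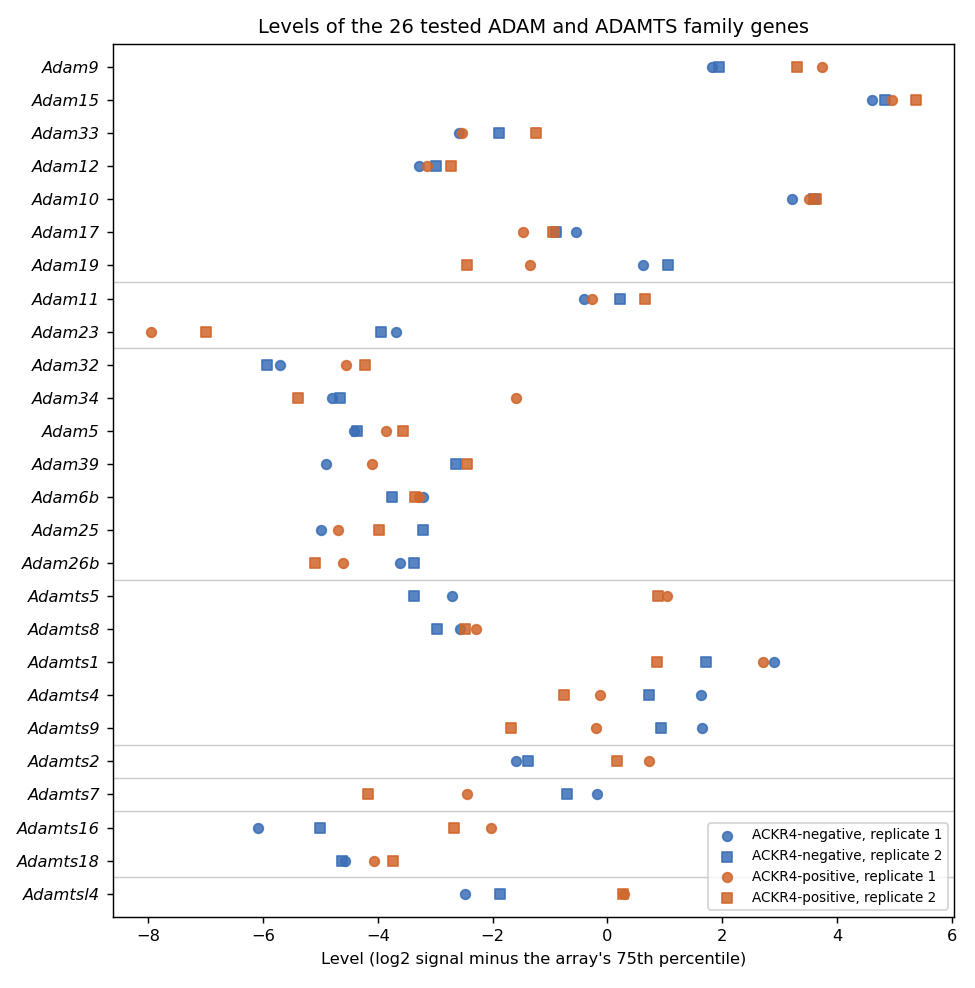
Levels of the 26 tested genes (x axis, log2 signal minus the 75th percentile of the array), 1 row per gene grouped by role, with 1 point per array. Circles are replicate 1 and squares replicate 2, blue ACKR4-negative and orange ACKR4-positive; the groups are far apart for Adamts5 (-3.37 and -2.71 against 0.88 and 1.04) and overlap for Adam10.

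The arrays of the groups did not overlap for 17 of the 26 genes, 10 with ACKR4-positive cells above and 7 with them below. Over all tested genes this held for 44.9%, 23.3% above and 21.6% below. Adamts8 is among the 10 by its brighter probe alone, since its dimmer probe was lower in ACKR4-positive cells. Replicates 1 and 2 are the 2 sorts, and in a fit with the replicate as a block 12 of the 26 genes were called, 6 higher and 6 lower, against 15.3% of all tested genes, 6.75% higher and 8.55% lower. These 12 were the 5 above and Adam9, Adam19, Adam26b, Adam32, Adamts4, Adamts7 and Adamts9. All 12 also had an unadjusted p under 0.05 in the unblocked limma fit, as did 2344 of the 2656 genes that the block called among all tested genes.

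Among the proteoglycanases, Adamts5 showed the largest difference. ADAMTS5 is a main aggrecan-cleaving enzyme of cartilage and also cuts versican. Its levels were -2.71 and -3.37 on the ACKR4-negative arrays and 1.04 and 0.88 on the ACKR4-positive arrays. Both ACKR4-positive arrays lay far above both others, and the gene went from below to above the 75th percentile of its array. The log2 fold change was 4.00 ± 0.34 (SE, n = 2 per group), or 16.0-fold, with an adjusted p of 0.0126, and it was 3.75 in sort 1 and 4.25 in sort 2. The gene was called in all 15 alternative fits (3.24 to 4.33, adjusted p up to 0.0396), including the one without the ACKR4-negative array of weak spike-in signal. In each fit without 1 array, here and below, 1 group is a single array with no spread of its own, which is assumed to vary like the other group. On mm9 the probe maps to chromosome 16, bases 85858402 to 85858461. A second probe of the gene, at 85899450 to 85899509, had levels of -3.19 and -5.24 against 0.15 and -0.89, a log2 fold change of 3.84 ± 0.80 whose adjusted p over all probes was 0.0811.

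Adamts1, an aggrecanase and versicanase gene and the neighbour of Adamts5, was not called, and the difference between the 2 genes was not tested. Their probes lie 63.3 kb apart. The levels of Adamts1 were 2.90 and 1.71 in the ACKR4-negative group and 2.71 and 0.87 in the ACKR4-positive group. The groups overlapped, the replicates of each group were more than 1 log2 unit apart, and the log2 fold change of -0.52 ± 0.77 was not called (adjusted p = 0.853).

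Adamts4, which encodes the other main aggrecanase, and Adamts9, a versican-cleaving enzyme gene active in vessels of the embryo, had values of the other sign. Adamts4 had levels of 1.63 and 0.73 on the ACKR4-negative arrays and -0.13 and -0.76 on the ACKR4-positive arrays, a log2 fold change of -1.62 ± 0.45 (adjusted p = 0.162). Adamts9 had levels of 1.64 and 0.93 in the ACKR4-negative group and -0.20 and -1.68 in the ACKR4-positive group, a log2 fold change of -2.23 ± 0.60 (adjusted p = 0.156). For both genes the groups did not overlap, and in each group replicate 1 was above replicate 2. With the replicate as a block both were called, at adjusted p = 0.00886 and 0.00641. Their second probes gave -1.39 and -2.14.

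Adamts8, another proteoglycanase gene, gave 2 different answers. Its brighter probe, on chromosome 9 at 30751050 to 30751109 (mm9), stood at -2.57 and -2.97 on the ACKR4-negative arrays and -2.30 and -2.48 on the ACKR4-positive arrays, with a log2 fold change of 0.38 ± 0.30 (adjusted p = 0.687). Its dimmer probe, at 30770384 to 30770443, stood at -4.20 and -3.35 in the ACKR4-negative group and -7.92 and -6.96 in the ACKR4-positive group, where it was not well above background. The dimmer probe thus fell on both ACKR4-positive arrays while the brighter one stayed within 1 log2 unit on all 4. For the dimmer probe the log2 fold change was -3.66 ± 0.50, with an adjusted p of 0.0279 in the fit of single probes. Since the ACKR4-positive level has only an upper limit, the fall is bounded at 3.72-fold or more. No direction is given for the gene, and which transcripts each probe reads was not tested. Adamts15 and Adamts20, the remaining members of this branch, were not tested.

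**Figure D2:**
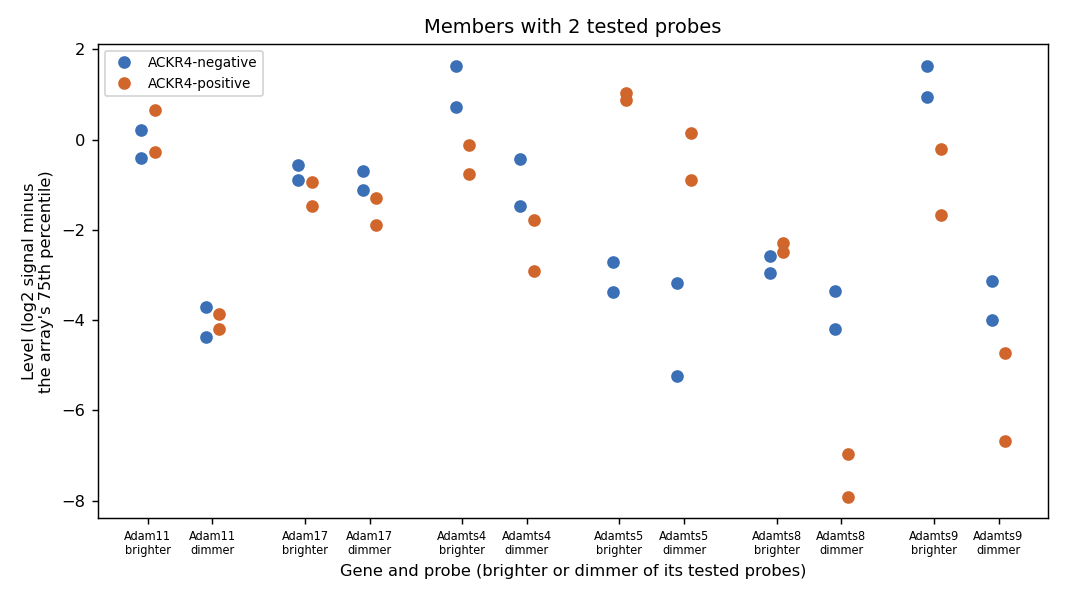
Levels (y axis, log2 signal minus the 75th percentile of the array) of the 6 genes that had 2 tested probes, with the brighter probe of each gene on the left and 1 point per array, blue ACKR4-negative and orange ACKR4-positive. Both probes of Adamts5 are higher and both of Adamts4 and Adamts9 lower in ACKR4-positive cells, whereas the probes of Adamts8 differ, at 0.38 and -3.66 in log2 fold change, the latter a fall of at least 3.72-fold since that probe was not well above background in ACKR4-positive cells.

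The other called ADAMTS genes belong to separate branches. ADAMTS2 removes the N-terminal propeptides of fibrillar procollagens. Adamts2 stood at -1.59 and -1.38 on the ACKR4-negative arrays and 0.72 and 0.16 on the ACKR4-positive arrays. Both ACKR4-positive arrays were above both ACKR4-negative ones, and the log2 fold change of 1.93 ± 0.33, or 3.80-fold, was just inside the threshold (adjusted p = 0.0497). Leaving out any single array ended this call (adjusted p = 0.0631 to 0.248), as did testing without the filter on dim probes (adjusted p = 0.0689) and fitting each tested probe on its own (adjusted p = 0.0514), while the value stayed at 1.64 to 2.21. On mm9 the probe maps to chromosome 11, bases 50617472 to 50617531. The other procollagen N-propeptidase genes, Adamts3 and Adamts14, were not tested.

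Adamts16, a gene of the less studied branch around Adamts18, was not well above background on either ACKR4-negative array, at -6.09 and -5.01, and stood at -2.02 and -2.67 in ACKR4-positive cells. By its brighter probe it was thus well above background in ACKR4-positive cells alone. The log2 fold change was 3.20 ± 0.49 (adjusted p = 0.0395). Since the lower group has only an upper limit, the difference is also given as at least 7.73-fold, with each ACKR4-negative level taken as the higher of its own value and the dimmest signal on its array that was well above background. The call ended when replicate 1 of the ACKR4-negative group was left out (adjusted p = 0.103), and likewise for ACKR4-positive replicates 1 and 2 (adjusted p = 0.110 and 0.0554). With normexp background correction the value was 1.35 (adjusted p = 0.0752). On mm9 the probe maps to chromosome 13, bases 70867148 to 70867207. The other probe of the gene was not well above background on any array, at -7.42 and -7.14 against -6.54 and -6.55. Adamts18 stood at -4.58 and -4.62 in the ACKR4-negative group and -4.07 and -3.73 in the ACKR4-positive group, with a log2 fold change of 0.70 ± 0.28 that was not called (adjusted p = 0.343).

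ADAMTSL4 binds fibrillin in microfibrils, and loss of the human gene displaces the lens of the eye. Adamtsl4 stood at -2.49 and -1.86 on the ACKR4-negative arrays and 0.29 and 0.27 on the ACKR4-positive arrays. The ACKR4-positive arrays were nearly equal and both above the others, and the log2 fold change was 2.46 ± 0.33, or 5.50-fold (adjusted p = 0.0288). It did not pass when any single array was left out (adjusted p = 0.0679 to 0.136), at values of 2.15 to 2.77. On mm9 the probe maps to chromosome 3, bases 95480135 to 95480194.

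Adamts2 and Adamts5 are also known from fibroblasts. The fibroblastic reticular sums given above were no higher in ACKR4-positive cells, but they add markers that moved in opposite directions. Lepr had a log2 fold change of -3.09 ± 0.66 (adjusted p = 0.0866) and Dcn of 2.37 ± 0.95 (adjusted p = 0.337). Dcn was higher in both sorts, by 3.09 and 1.65, and was called with the replicate as a block (adjusted p = 0.0162). The block called 1 of the 7 fibroblastic markers higher and 3 lower, beside 6.75% and 8.55% of all tested genes. Of 2 tested mesothelial markers 0 were called without the block. With it Msln was higher (adjusted p = 0.0102, at least 6.12-fold) and Wt1 lower (adjusted p = 0.00978, at least 2.69-fold). Of 10 sinusoidal endothelial markers 2 were called higher and 1 lower, beside 1.91% and 3.71% of all tested genes. Both ACKR4-positive arrays lay above both others for 4 of the 10 and below for 4. Over all tested genes this held for 23.3% and 21.6%. The median log2 fold change of the 10 markers was -0.11. Their summed level was 280 and 237 in the ACKR4-negative group and 447 and 596 in the ACKR4-positive group. Bright genes weigh most in such a sum, and Clec4g went from 2.31 and 3.59 to 7.43 and 8.57. The part of other cells in these 4 rises was not tested.

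Adamts7 encodes an enzyme that cuts cartilage oligomeric matrix protein and is known from vascular smooth muscle. Its levels were -0.17 and -0.71 on the ACKR4-negative arrays and -2.45 and -4.17 on the ACKR4-positive arrays. The groups did not overlap, but the ACKR4-positive arrays were far apart, and the log2 fold change of -2.87 ± 0.65 was not called (adjusted p = 0.103). With the replicate as a block it was called (adjusted p = 0.00568), as it was without ACKR4-positive replicate 1 (-3.73, adjusted p = 0.0369). Mural markers were lower on the same arrays by the sums given above, and their part in this difference was not tested. Its relative Adamts12 was not tested.

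**Figure D3:**
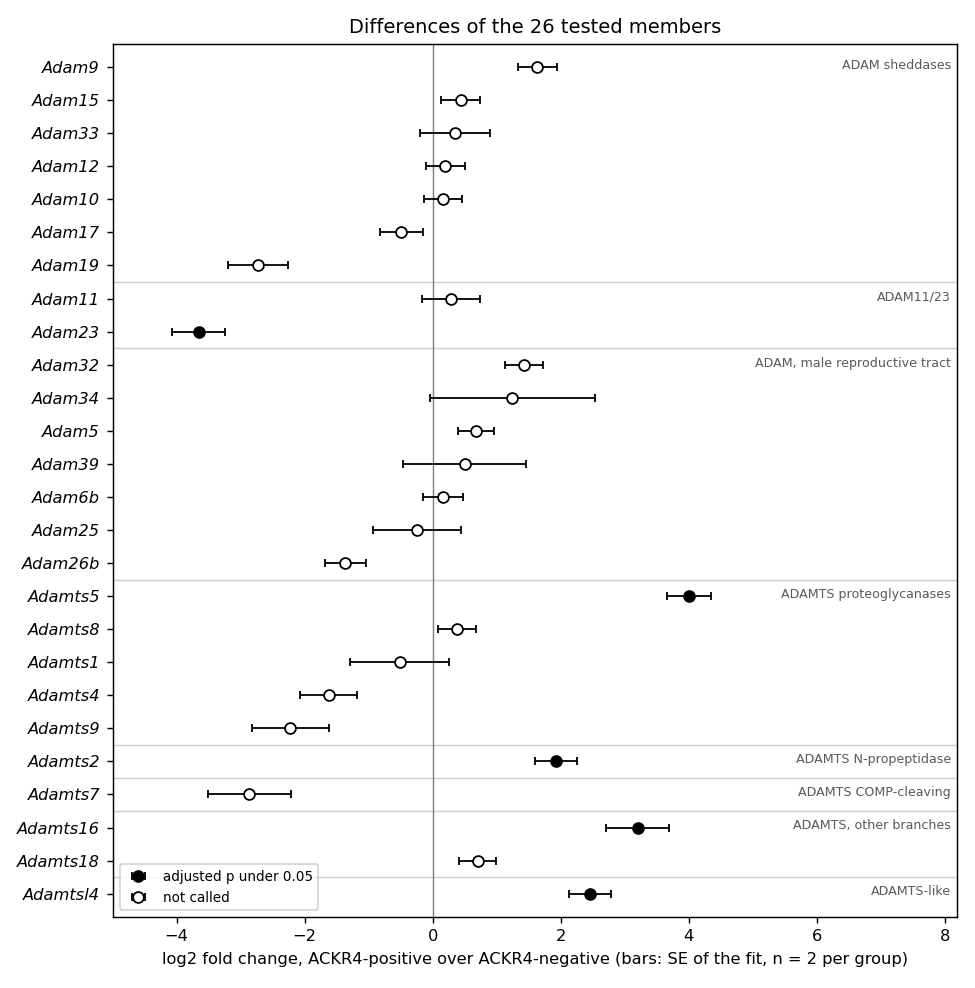
Log2 fold changes of the 26 tested genes, ACKR4-positive over ACKR4-negative (x axis), with bars of 1 SE of the fit (n = 2 per group) and genes grouped by role. Filled points have an adjusted p under 0.05: Adamts5 (4.00), Adamts16 (3.20), Adamtsl4 (2.46) and Adamts2 (1.93) to the right of 0 and Adam23 (-3.66) to the left.

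ADAM23 lacks an active site and binds integrins and the secreted LGI proteins. Adam23 stood at -3.68 and -3.95 in the ACKR4-negative group and -7.95 and -7.00 in the ACKR4-positive group, where its probe was not well above background. It was thus well above background in ACKR4-negative cells alone. The log2 fold change was -3.66 ± 0.42 (adjusted p = 0.0199), and the fall was at least 3.62-fold when the background limit was used in the same way as for Adamts16. The call ended when either ACKR4-negative array was left out (adjusted p = 0.0682 and 0.0539), and with normexp background correction the value was -0.94 (adjusted p = 0.258). The probe lies on chromosome 1 at 63639339 to 63639398 (mm9), and the other 3 probes of the gene were not well above background in either group. Megakaryocyte, platelet and mural markers fell on the same arrays, and their part in this fall was not tested.

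Its relative Adam11 stood at -0.40 and 0.21 on the ACKR4-negative arrays and -0.27 and 0.65 on the ACKR4-positive arrays, overlapping, with a log2 fold change of 0.28 ± 0.45 (adjusted p = 0.861). Adam22, which completes this branch, was well above background on 1 array and was not tested. Of 4 LGI ligand genes 2 were tested and 0 called, with log2 fold changes of 0.56 for Lgi4 and 0.15 for Lgi2.

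The sheddases of many tissues held 0 called genes among 7 tested of 9. Adam9 and Adam19 were the 2 with an unadjusted p under 0.05 in limma, beside 16.3% of all tested genes. ADAM10 and ADAM17 are the sheddases with the widest range of substrates, and ADAM10 makes the cut in Notch receptors that follows ligand binding. Adam10 stood at 3.22 and 3.60 in the ACKR4-negative group and 3.50 and 3.64 in the ACKR4-positive group. All 4 arrays lay within 1 log2 unit, and the log2 fold change was 0.16 ± 0.29 (adjusted p = 0.880). Adam17, the enzyme gene for release of tumour necrosis factor, stood at -0.55 and -0.89 on the ACKR4-negative arrays and -1.48 and -0.95 on the ACKR4-positive arrays. Its groups were apart by a small gap, with a log2 fold change of -0.49 ± 0.33 (adjusted p = 0.623) and -0.69 at its second probe. With 2 simulated arrays per group, the fit without the block recovered differences of 1 log2 unit in 0% of genes. Differences of this size can thus be missed by that fit. The simulated arrays were not paired by sort, so the block was not judged by them.

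Adam15, whose product is found at endothelial junctions, stood at 4.61 and 4.84 in the ACKR4-negative group and 4.95 and 5.37 in the ACKR4-positive group, a log2 fold change of 0.44 ± 0.30 (adjusted p = 0.627). Adam9, which encodes a broadly expressed sheddase, stood at 1.82 and 1.95 on the ACKR4-negative arrays and 3.74 and 3.30 on the ACKR4-positive arrays. For Adam9 the replicates were close within each group and far from the other group. The log2 fold change of 1.63 ± 0.30, or 3.11-fold, was just outside the threshold (adjusted p = 0.0607), and the gene was called with the replicate as a block (adjusted p = 0.0126).

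Adam19 encodes a sheddase of neuregulins that acts in heart development. Its levels were 0.61 and 1.05 in the ACKR4-negative group and -1.36 and -2.45 in the ACKR4-positive group. The groups did not overlap, and the log2 fold change of -2.73 ± 0.47, or 6.65-fold lower, was also just outside the threshold (adjusted p = 0.0512). It was called in 8 of 15 alternative fits, among them the one with the replicate as a block (adjusted p = 0.0118). Together with Adam23, Adam19 was the ADAM gene with the widest gap below ACKR4-negative cells, and platelet and mural markers moved the same way. Their part in the value of Adam19 was not tested. The other probe of Adam19 was not well above background on any array, at -7.52 and -7.50 against -7.87 and -7.35. Adam12 and Adam33, known from muscle and airway mesenchyme, had log2 fold changes of 0.20 ± 0.31 and 0.35 ± 0.55, with overlapping groups. The other probes of both genes were not well above background on any array. Adam8 and Adam28, known from leukocytes, were well above background on 0 arrays.

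The remaining ADAM genes are known from testis and epididymis, where several act on the sperm surface. Of 21 such genes 7 passed the background filter, at levels of -1.59 or lower, and 0 were called. Adam32 and Adam26b were the 2 with an unadjusted p under 0.05 in limma, beside 16.3% of all tested genes. Adam32 was not well above background in ACKR4-negative cells, at -5.70 and -5.93, and stood at -4.55 and -4.22 in ACKR4-positive cells, at least 2.28-fold higher (log2 fold change 1.43 ± 0.29, adjusted p = 0.0800, and 0.0194 with the replicate as a block). Adam26b stood at -3.62 and -3.37 on the ACKR4-negative arrays and -4.61 and -5.10 on the ACKR4-positive arrays, a log2 fold change of -1.36 ± 0.32 (adjusted p = 0.110, and 0.0292 with the block). The other probe of Adam32 was not well above background on any array. The dimmest signal well above background on each array was -6.03 to -5.31.

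Adam34 depended on 1 array. It stood at -4.81 and -4.65 in ACKR4-negative cells and at -1.59 and -5.38 in ACKR4-positive replicates 1 and 2, so that only replicate 1 was high. The log2 fold change of 1.24 ± 1.29 (adjusted p = 0.777) became -0.65 without that array and 3.14 (adjusted p = 0.0340) without ACKR4-positive replicate 2. Adam5, Adam6b, Adam25 and Adam39 had log2 fold changes of 0.68, 0.17, -0.24 and 0.50, and except for Adam5 their groups overlapped. Of all 57 genes 14 lie on chromosome 8, where the probes of Adam26b, Adam26a and Adam34 follow each other at 48.5 and 79.8 kb. How far their probes tell such related genes apart was not tested.

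**Figure D4:**
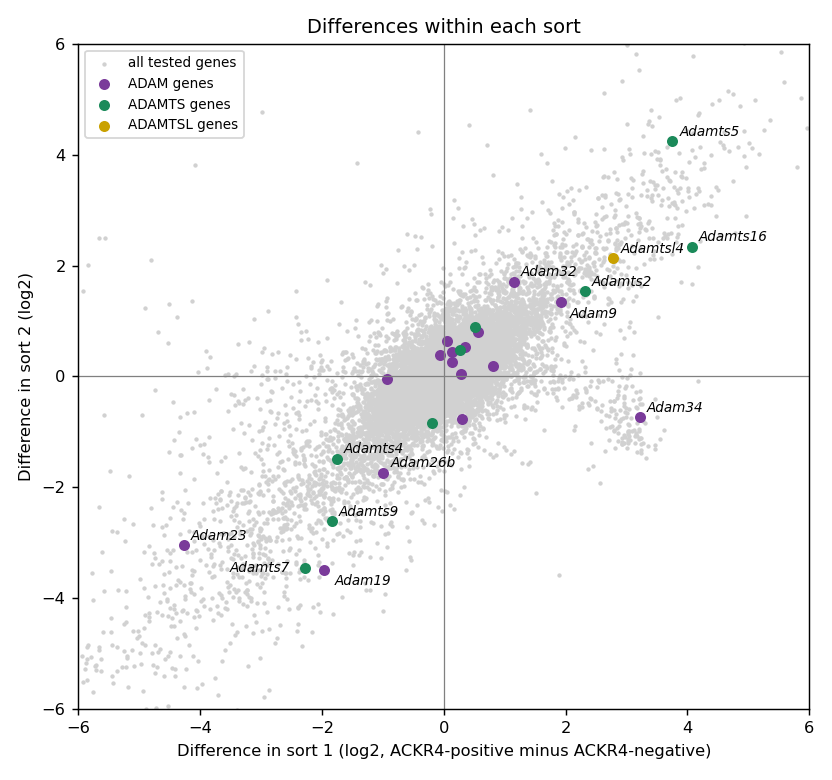
Differences of ACKR4-positive minus ACKR4-negative level in sort 1 (x axis) and sort 2 (y axis), both in log2 units, for all 17362 tested genes in grey and for the ADAM, ADAMTS and ADAMTSL genes in colour. The 142 genes beyond 6 on either axis are not drawn. The called genes lie in the upper right or lower left, while Adam34 differs by 3.22 in sort 1 and -0.73 in sort 2.

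The 31 genes that were not tested comprised 17 ADAM, 10 ADAMTS and 4 ADAMTSL genes. Of these, 22 were well above background on 0 arrays, 3 on 1 array and 6 on 2. Their mean levels over the arrays were -7.60 to -5.14. Adamts13, whose product cuts von Willebrand factor in plasma and is known from liver stellate cells, was among the 22, at -7.38 and -6.89 in the ACKR4-negative group and -6.26 and -6.87 in the ACKR4-positive group. Adamts15 was well above background on ACKR4-negative replicate 2 alone, at -4.47, against -7.95 to -7.29 on the other arrays. Of the ADAMTS-like genes, Adamtsl1, Adamtsl2, Adamtsl3 and Adamtsl5 were not tested.

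Tissue inhibitors of metalloproteinases block ADAM and ADAMTS enzymes, TIMP3 most broadly, and RECK is a membrane-bound inhibitor. Of 7 such genes 5 were tested, and 2 of them fell, beside 3.71% of all tested genes. Timp4 went from -3.30 and -2.27 to -5.73 and -5.49, a log2 fold change of -2.82 ± 0.44 (adjusted p = 0.0399, at least 6.65-fold), and Reck from -2.07 and -2.20 to -3.68 and -4.02, of -1.72 ± 0.29 (adjusted p = 0.0474). Timp3, Timp2 and Timp1 had log2 fold changes of 0.55, 1.48 and 0.0041, and Timp2 was called with the replicate as a block (adjusted p = 0.0191).

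Proprotein convertases remove the prodomain that keeps these proteases inactive. Of 4 tested convertase genes 1 fell, again beside 3.71% of all genes. It was Pcsk6, from -3.29 and -3.40 to -7.14 and -6.93 (log2 fold change -3.69 ± 0.27, adjusted p = 0.0103, at least 5.01-fold). Furin, the broadly expressed convertase gene, had -1.13 ± 0.27 (adjusted p = 0.115, and 0.0253 with the block). Of 7 tested of 9 genes for the tetraspanins and iRhom proteins that carry ADAM10 and ADAM17 to the surface 0 were called by limma. At an unadjusted p under 0.05 2 were lower, beside 16.3% of all tested genes in either direction. Values ran from -0.90 for Tspan15 to 0.98 for Tspan17. The O-fucosylation genes for thrombospondin repeats, Pofut2 and B3glct, had 0.052 and 0.51 and were not called.

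Of 31 genes for known ADAM substrates 26 were tested, and 7 fell and 2 rose, beside 3.71% and 1.91% of all tested genes. With the replicate as a block 11 were lower and 6 higher, beside 8.55% and 6.75%. The Notch ligand and receptor genes Dll4, Jag2 and Notch4 had log2 fold changes of -7.71, -5.71 and -5.66, and the platelet collagen receptor gene Gp6 of -7.37. Dll4 and Gp6 were not well above background on the ACKR4-positive arrays, which bounds their falls at 200.2-fold and 78.9-fold or more, and Jag2 was well above background on 1 of those 2 arrays. The Notch ligand genes Dll1 and Jag1 had 3.63 and 3.44. Thus Notch pathway substrates of ADAM10 stood on both sides, while Adam10 was within 1 log2 unit on all arrays. Efnb2, Cd44 and Gp1ba completed the falls, at -3.91, -3.70 and -2.61. Gp6 and Gp1ba are also platelet markers, and 10 of 12 of these were lower.

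Of 18 genes for ADAMTS substrates and cofactors 15 were tested, and 5 fell and 1 rose, beside 3.71% and 1.91% of all tested genes. Vwf, the substrate of ADAMTS13, stood at 3.33 and 4.14 on the ACKR4-negative arrays and -3.13 and -2.63 on the ACKR4-positive arrays (log2 fold change -6.61 ± 0.41, adjusted p = 0.00776), and Thbs1, Fn1 and Nid2 had -5.96, -4.98 and -3.51. Fn1 was well above background on 1 of the 2 ACKR4-positive arrays. The products of Vwf and Thbs1 are also stored in platelets, whose markers fell on the same arrays (10 of 12 called lower), and the part of platelets in these falls was not tested. Vegfc had -2.33, and Ccbe1 was the gene that rose, at 3.77. CCBE1 is the cofactor with which ADAMTS3 activates VEGF-C, and Adamts3 was not well above background on any array. The proteoglycan genes Vcan and Acan, substrates of ADAMTS5, had log2 fold changes of 0.24 and -0.25, and Col3a1, a substrate of ADAMTS2, had 1.71 ± 0.64 (adjusted p = 0.300). The collagen genes Col1a1 and Col1a2, of the same list, had -0.065 and -0.67. Like Vcan and Acan, they were called neither with nor without the replicate block. Col3a1 was called with the block (adjusted p = 0.0326), at 2.33 in sort 1 and 1.09 in sort 2. The whole substrate lists had medians of -0.87 for ADAM and -0.67 for ADAMTS, beside 0.04 over all genes.

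**Figure D5:**
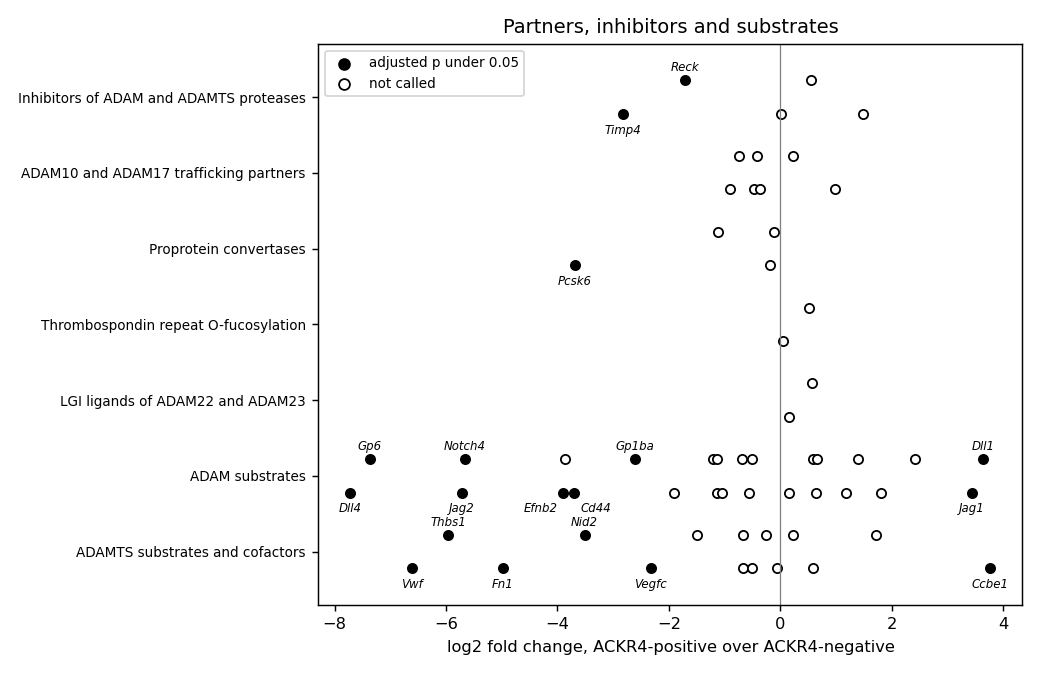
Log2 fold changes, ACKR4-positive over ACKR4-negative (x axis), of tested genes in 7 lists of inhibitors, partners and substrates, 1 point per gene, filled where the adjusted p was under 0.05 and shifted up or down only to separate points. The inhibitor genes Timp4 and Reck and the convertase gene Pcsk6 lie left of 0, and the substrate lists run from Dll4 (-7.71) to Ccbe1 (3.77).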

How the data were processed

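RNA of 2 ACKR4-positive and 2 ACKR4-negative sorts was measured on 1-colour arrays. The deposited spot signal is an intensity, which the authors extracted with Feature Extraction 10.7.3.1 from Agilent, per the submitters' processing notes. Per the file headers it is background-subtracted and detrended, on mm9 positions. The deposited flag columns mark outlier spots, 1.91% to 1.96% per array, which were left out. The deposited value table of scaled intensities served as an alternative.

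Levels are mean log2 intensity over the 4 spots of a probe minus the 75th percentile of the array (590 to 949 in signal). Probes entered the test if, on both arrays of a group, more than 50% of spots were well above background, and the brightest tested probe stood for a gene. Groups were compared with limma 3.58.1 (2-sided, lmFit and eBayes, R 4.3.3). P-values were adjusted over 17362 genes by Benjamini-Hochberg. Standard errors are of the fit. P-values rest on the spread between 2 sorts, and the number of arrays limits precision. In simulated data with 50 genes changed at each size, 0%, 26%, 90% and 100% of changes of 1, 2, 4 and 8 log2 units were recovered, and 11 unchanged genes were called. The simulated arrays varied independently, without pairing by sort, and only the fit without the block was run on them. Fewer genes were changed there than the 976 called in the measured data. Other tools were the data.table package (1.17.8), jsonlite 2.0.0, Python 3.11.15, pandas 2.3.3 and matplotlib 3.10.9.

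Replicate numbers pair the arrays: in the titles, arrays of equal replicate number share a mouse number, and the design text speaks of 2 sorts. The deviations of replicate 1 from replicate 2 correlated at 0.605 between groups over 17362 genes. A fit with the replicate as a block is the paired alternative. A slide block was not run because the headers name 1 slide and 1 scan.

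Every tested gene of the families is named, by role. Of each pathway list the called genes are named, up to 6 by smallest p. Efnb2, Jag1, Gp1ba, uncalled pathway genes and single markers were named after their values were seen. The genes, lists and tests were chosen with earlier results of these data known. Alternatives covered background correction, normalization, filters, the deposited values, a floor of 15, the mean of probes, outlier spots, the variance prior, thresholds, the block and leaving out each array. A fit of each probe on its own was added after the data were seen.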

Additional observations from a re-analysis of the deposited data

How the results depend on the processing

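In fits without 1 array the group left with a single array is assumed to vary like the other. ADAM genes called higher (0 as reported) were 1 with normexp background correction or a trended prior, 2 at an adjusted p under 0.1, 2 with the replicate block, and 0 to 1 when each array was left out. ADAM genes called lower (1) were 2 with the stricter filter, the deposited values, the mean of probes, outlier spots kept, the trended prior or an adjusted p under 0.1, 3 with the replicate block, and 0 to 2 without single arrays. ADAMTS and ADAMTSL genes called higher (4) were 1 to 2 without single arrays, and those called lower (0) were 1 with normexp, 3 with the replicate block and 0 to 1 without single arrays. Without ACKR4-negative replicate 1, the array of weak spike-in signal, Adamts5 alone of the families was called. Over all genes, 976 calls became 2656 with the replicate block, and 387 to 892 without single arrays. The block changed no call of a tested family gene other than the 7 named in the report, all of which it added. The ADAM median (0.24) was -0.092 to 0.57 without single arrays. The ADAMTS median (0.54) was -0.046 without the filter, which brings in the dim genes, 0.092 with the mean of probes and 0.23 with normexp, and under the first 2 of these it lay below the ADAM median (0.16 and 0.18).

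Of the called genes, Adamts5 kept its call in all alternatives, Adam23 in 12, Adamtsl4 and Adamts16 in 11 and Adamts2 in 10 of 15. Values of uncalled genes changed sign without single arrays for Adam10 (-0.029 to 0.35), Adam11 (-0.17 to 0.74), Adam12 (-0.0097 to 0.40), Adam25 (-1.13 to 0.65), Adam33 (-0.30 to 0.996), Adam34 (-0.65 to 3.14), Adam39 (-0.63 to 1.63), Adam6b (-0.0997 to 0.43) and Adamts1 (-1.44 to 0.41). The mean of probes turned Adamts8 to -1.64 (adjusted p = 0.0569), since its probes differ. Genes near background have values limited by it, as seen with normexp for Adam23 and Adamts16.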
